A study of Mus musculus with 33 samples.

Results

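Hepatic ChREBP was knocked down in liver that still had glucose-6-phosphatase, and 16 of the 33 libraries of the series bear on that comparison: 8 titled WTp (s9 to s16, shChREBP/L-G6pc+/+) and 8 titled WT (s1 to s8, shSCR/L-G6pc+/+). The libraries were chosen by their labels alone. All came from liver of male C57BL/6J mice labelled 13 to 18 weeks old, which the methods give as the age when the virus was given and not when the liver was taken. The L-G6pc+/+ mice of both groups carried the floxed G6pc allele without the hepatocyte Cre, and both were treated with tamoxifen, like the L-G6pc-/- mice of the series. An adeno-associated virus expressed the hairpin from a U6 promoter, and it carried either a hairpin against Mlxipl, the gene of ChREBP, or a scrambled hairpin (labelled shScramble and called shSCR here). A single hairpin sequence was used against Mlxipl, so an effect of the sequence itself and an effect of less ChREBP cannot be told apart in these groups. The labels do not say that each library is a separate mouse, so the p-values measure the spread between libraries. RNA was sequenced as 3' tags, and reads were counted per gene. In whole liver, fewer cells of a type and less RNA per cell cannot be told apart.

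ChREBP is a basic helix-loop-helix transcription factor that is activated by sugar phosphates. It binds carbohydrate response elements together with its partner Mlx, and in liver it is known for driving L-type pyruvate kinase (Pklr), fructose metabolism and the enzymes that turn sugar carbon into fatty acids. Lipogenic genes are shared with SREBP1c, which insulin activates, and cholesterol genes are controlled mainly by SREBP2.

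The hairpin's target is shown first, because every comparison below rests on it. The 21-base guide arm and its target are written 5' to 3', with bases 2 to 8 of the arm (its seed), and the bases of the target that pair with them, in capitals.
shChREBP arm: aTGTAGTTtgaagatgtgggt
Mlxipl target: acccacatcttcaAACTACAt
The arm was read from the study's supplement and the target from the GENCODE transcripts. The target lay at chr5:135128544-135128564 (GRCm38, + strand), in the coding part of exon 8, and 5 transcripts of Mlxipl held it. No other gene among 141767 transcripts held all 21 bases, and no transcript held an arm of the scrambled hairpin.

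Mlxipl (ENSMUSG00000005373, chr5:135089890-135138382, + strand) was between 449 and 612 CPM (median 528) in the 8 shSCR libraries. In the 8 shChREBP libraries it was between 292 and 413 CPM (median 395). The groups did not overlap: the highest shChREBP library lay below the lowest shSCR library, and s14, s15 and s16 were the lowest of all. The means were 535 ± 57.5 CPM (SD, n = 8) and 366 ± 49.9 CPM (SD, n = 8), and the log2 fold change between them was -0.55 ± 0.13 (SE, adjusted p = 0.0129). CPM is the count scaled to the library's total after TMM normalisation. Fold changes and adjusted p-values are from edgeR's quasi-likelihood test with Benjamini-Hochberg adjustment over all genes tested, unless another test is named. The SE is worked back from that test, as the size of the log2 fold change divided by the square root of the F statistic. The fitted level with shChREBP was 0.684 of that with shSCR.

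Pklr, the glycolytic enzyme that makes pyruvate and the best known ChREBP readout, was between 65.9 and 195 CPM (median 122) with shSCR. With shChREBP it was between 54.9 and 100 CPM (median 62.9). The groups overlapped through the shSCR libraries s8 and s4 and the shChREBP libraries s10, s12 and s13, and the fall was -0.83 ± 0.17 on the log2 scale (SE, adjusted p = 0.00347). The relation of Mlxipl and Pklr between libraries of 1 group did not pass the test in either group. In the shSCR group Pearson's r was 0.199 (exact permutation p = 0.662, adjusted 0.662) and Spearman's rho was -0.0952 (exact permutation p = 0.84). In the shChREBP group r was 0.625 (exact permutation p = 0.0852, adjusted 0.17 over the 2 groups) and rho was 0.667 (exact permutation p = 0.0831, adjusted 0.166). Without the 2 libraries farthest from the median of Mlxipl, r was 0.321 and 0.638.

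The Pklr promoter is shown because, of the 27 target genes with a promoter window, it was the 1 in which the letters of a full carbohydrate response element were found. This is the RefSeq window of 250 bases before to 50 bases after its start, chr3:89136373-89136672 (GRCm38.p6, + strand), with the element of 17 bases in capitals, 170 to 154 bases before the start.
Pklr promoter: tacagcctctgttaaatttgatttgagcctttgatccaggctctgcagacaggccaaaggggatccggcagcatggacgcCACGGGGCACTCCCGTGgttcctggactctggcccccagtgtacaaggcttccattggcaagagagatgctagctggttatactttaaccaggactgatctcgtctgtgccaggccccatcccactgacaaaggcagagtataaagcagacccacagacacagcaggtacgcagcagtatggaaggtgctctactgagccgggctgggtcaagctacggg
The letters searched on both strands were CACGNG and CNCGTG, a pair of E-boxes with 5 bases between them. They were in 5 of the 7870 tested genes with a window (0.0635%), in 1 of 250 genes that fell (0.4%) and in none of 150 that rose. A gene was counted if any of its windows held the letters. The single E-box CACGTG was in 12.1% of all tested genes with a window and in 11.6% of those that fell. It was in 3 of 27 target genes (11.1%, Arrdc4, Fgf21 and Khk). These last 2 shares were close to that of all genes, while CACGTG was in 4 of 17 cholesterol synthesis genes (23.5%). Another string searched, TCACNCCAC, was in 1.55% of all genes, in 2.8% of those that fell and in none of 150 that rose. Whether these letters bear on the changes was not tested. A window without the letters says only that they are not within these bases.

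Libraries differed in ways that the groups do not name, and these are given before the results. Total counts were 2005791 to 3546852 (median 2220882) in the shSCR group and 1824809 to 2497087 (median 1952654) in the shChREBP group. Gm42418, the gene with the most counts, took 4.22 to 11.1% and 6.25 to 15.7% of them. On the first principal component of the 16 libraries (17.7% of the variance), shSCR libraries were at 1.66 to 25.97 and shChREBP libraries at -29.76 to 3.813, and the overlap was due to s12. Library s9 stood alone on the second (43.54, others -16.86 to 11.71) and had the highest share of Gm42418. Library s13 had the highest summed blood cell markers (6953 CPM) and the highest Top2a (70.6 CPM). Of the 28 pairs of libraries within each of these groups, none was alike enough to be 1 library deposited under both names.

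Of 25988 genes, 10179 had enough counts to be tested. With shChREBP, 549 of them changed (5.39%): 329 fell (3.23%) and 220 rose (2.16%). The changes were mostly modest. The median log2 fold change was -0.53 among the genes that fell and 0.63 among those that rose, against 0.03 over all genes, and 20 genes fell and 39 rose by at least 2-fold. In 88 genes (0.865%) the 8 values of one group lay wholly above or below those of the other, and 79 of these passed the test, 60 lower and 19 higher. The count depended on single libraries: it was 316 without s2, 365 without s3, 362 without s11, 340 without s15 and 337 without s16, and up to 626 without s8. Without s9 and s13 together it was 418, of which 341 were among the 549. No gene that passed had the opposite sign in any of these fits. Of the 85 genes named by rule that passed, 53 did so in each of the 16 fits without 1 library.

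**Figure D1:**
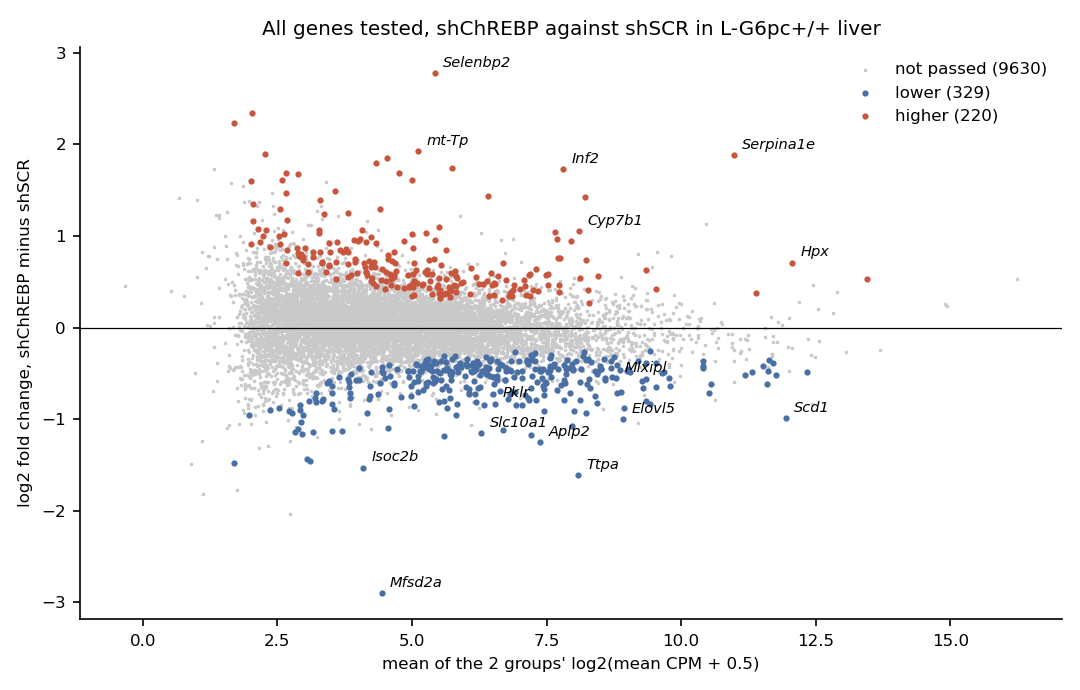
Each point is 1 of the 10179 genes tested; the x axis is the mean of the groups' log2(mean CPM + 0.5) and the y axis the fitted log2 fold change, shChREBP minus shSCR. The 329 genes that fell are blue and the 220 that rose are red, and most changes are smaller than 2-fold.

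Of ChREBP's partners and regulators, Mlxipl itself was the 1 gene of 13 tested that passed (the list's median log2 fold change was 0.20). Mlx, the obligate partner, was between 20.1 and 38.5 CPM with shSCR and between 17.8 and 56.3 CPM with shChREBP (log2 fold change 0.26 ± 0.20, SE, adjusted p = 0.477). Mlxip, the paralog of Mlxipl, was at a log2 fold change of 0.63 ± 0.34 (SE, adjusted p = 0.275), and Nr1h3, the liver X receptor that is known to induce Mlxipl, at -0.16 ± 0.10 (SE, adjusted p = 0.36). The other partners and regulators ranged in log2 fold change from -0.41 (Bhlhe40, a repressor; adjusted p = 0.414) to 0.89 (Bhlhe41, its paralog; adjusted p = 0.348), with Usf2 at -0.26, Klf15 at 0.04, Nr1h2 at 0.08 and Ogt at 0.24. The groups overlapped in each of these genes.

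Of the 32 ChREBP target genes, all were tested, 11 fell (34.4%) and none rose. Over all genes 3.23% fell and 2.16% rose, and each list's share below is read against these. The list's median log2 fold change was -0.46, and 26 of the 32 fitted changes were below 0. Among the 11 were Mttp, Pklr, Scd1, Acaca, Me1, Khk, Hgfac, Acly, Slc37a4 and Tm6sf2. The number that fell was 6 without s6, 7 without s15 and 15 without s12, and 7 without s9 and s13.

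Khk, the ketohexokinase that starts fructose breakdown, was between 489 and 650 CPM (median 540) with shSCR and between 312 and 644 CPM (median 368) with shChREBP. Only s12, at 644 CPM, lay within the shSCR range, and the next highest shChREBP library was at 401 CPM. Its log2 fold change was -0.46 ± 0.12 (SE, adjusted p = 0.0167), -0.59 without s12 (adjusted p = 0.000326), and -0.39 without s9 and s13 (adjusted p = 0.0641).

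Hgfac, the protease that activates hepatocyte growth factor, was between 179 and 215 CPM (median 190) with shSCR and between 115 and 163 CPM (median 141) with shChREBP. The groups did not overlap, and the log2 fold change was -0.45 ± 0.12 (SE, adjusted p = 0.0293). The call was lost without s2, s5, s6, s14 or s15, with adjusted p between 0.0517 and 0.064, and without s9 and s13 (adjusted p = 0.0752). Slc37a4, the transporter that brings glucose 6-phosphate to G6pc, fell by 0.47 ± 0.14 on the log2 scale (SE, adjusted p = 0.0428). That call held without s1, s5, s8 or s12 and was lost without any other 1 library. G6pc itself was between 78.7 and 364 CPM with shSCR and between 69.1 and 201 CPM with shChREBP (log2 fold change -0.58 ± 0.29, SE, adjusted p = 0.243).

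Txnip and Arrdc4, arrestin genes that glucose induces through ChREBP and MondoA, were at log2 fold changes of 0.54 ± 0.41 (SE, adjusted p = 0.473) and 0.38 ± 0.22 (SE, adjusted p = 0.328). Of the other targets that did not pass, Slc2a8, a sugar transporter, was highest at 0.58 (adjusted p = 0.104), followed by the hormone gene Fgf21 at 0.31, Klf10 at 0.20 and the acyltransferase Gpam at 0.06. Gckr, the glucokinase regulator, was at -0.08, Gpi1 at -0.18, Slc2a2 at -0.21, Rgs16 at -0.22, Tkt at -0.23, Gpd1 at -0.24 and Tkfc at -0.29. Among lipid genes Mid1ip1 was at -0.58 (adjusted p = 0.0995), Acacb at -0.59 (adjusted p = 0.0635), Angptl8 at -0.72 (adjusted p = 0.393) and Pnpla3 at -1.77 (adjusted p = 0.115). Txnip was between 152 and 406 CPM with shSCR and between 83.4 and 528 CPM with shChREBP, so its shChREBP range enclosed the whole shSCR range.

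**Figure D2:**
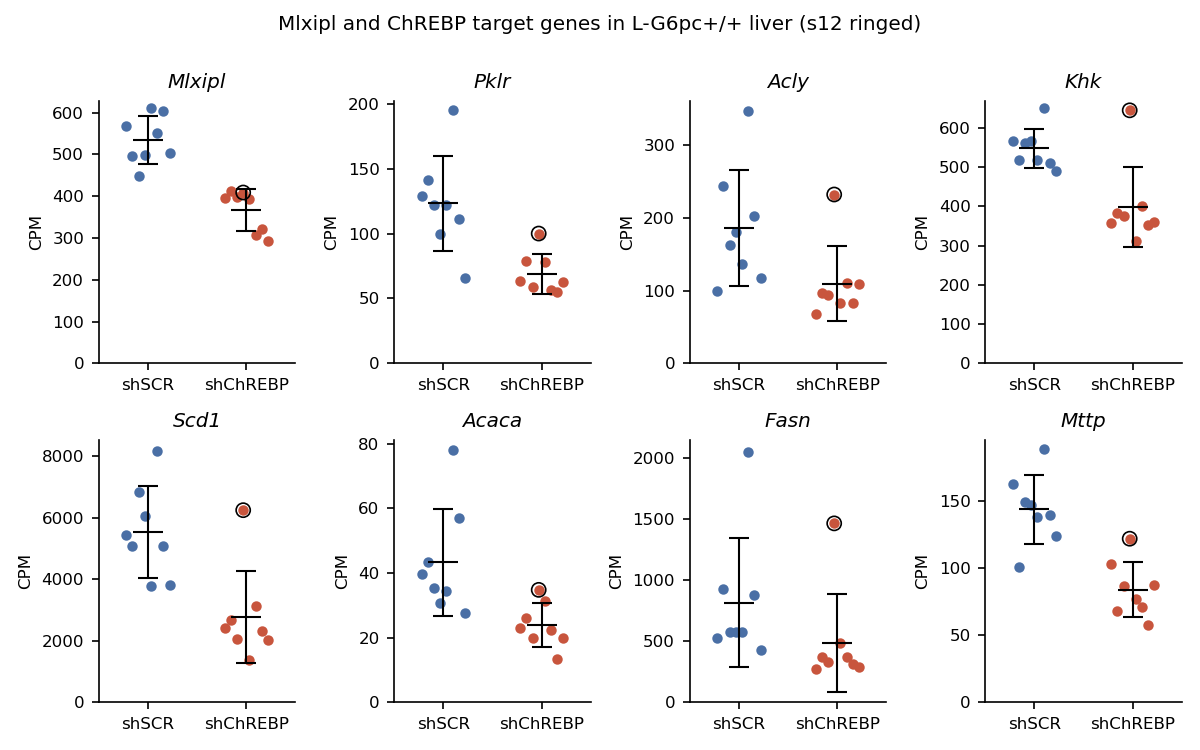
Each panel shows CPM, from 0, of Mlxipl or a ChREBP target gene in the 8 shSCR (blue) and 8 shChREBP (red) libraries, with the mean and SD as bars and library s12 ringed. Mlxipl is the panel without overlap; in Acly, Khk, Scd1 and Fasn the ringed library sits far above the other 7 of its group.

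Of 20 genes of fatty acid synthesis and desaturation tested, 7 fell (35%, against 3.23% of all genes) and none rose. The 7 were Elovl5, Scd1, Acaca, Me1, Acly, Acss2 and Elovl2, and the median log2 fold change was -0.63. Scd1, the desaturase that makes oleate, was between 3800 and 8191 CPM (median 5273) with shSCR and between 1374 and 6253 CPM (median 2368) with shChREBP. The highest shChREBP library was again s12, and the others were at or below 3143 CPM, under the lowest shSCR library. Scd1 fell by 0.99 ± 0.21 on the log2 scale (SE, adjusted p = 0.00527).

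Elovl5, the elongase of polyunsaturated fatty acids, was between 422 and 907 CPM (median 687) with shSCR and between 246 and 497 CPM (median 333) with shChREBP. Library s12 was again the only shChREBP library above the lowest shSCR library, s8. The log2 fold change of Elovl5 was -1.0 ± 0.21 (SE, adjusted p = 0.00416). Acaca, the acetyl-CoA carboxylase of the committed step, was between 27.7 and 77.9 CPM (median 37.6) with shSCR and between 13.3 and 34.8 CPM (median 22.8) with shChREBP. Its groups overlapped through s12 and s13, and its log2 fold change was -0.86 ± 0.21 (SE, adjusted p = 0.0123).

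Acly, the ATP citrate lyase, was between 100 and 346 CPM (median 172) with shSCR and between 67.3 and 232 CPM (median 95.4) with shChREBP. The groups overlapped widely, and the log2 fold change was -0.77 ± 0.22 (SE, adjusted p = 0.0308). The call was lost without any one of s2, s6, s7, s9, s11, s13, s15 or s16 (log2 fold change -0.77 to -0.59, adjusted p 0.0513 to 0.0962). Me1, the malic enzyme that makes NADPH, fell by 0.67 ± 0.17 on the log2 scale (SE, adjusted p = 0.0156). Without s6 it was at -0.48 (adjusted p = 0.0566).

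Fasn, the fatty acid synthase, was between 427 and 2052 CPM (median 578) with shSCR and between 273 and 1467 CPM (median 353) with shChREBP. In each group 1 library stood far above the other 7: s6 with shSCR, where the others were at or below 931 CPM, and s12 with shChREBP, where the others were at or below 488 CPM. The log2 fold change of Fasn was -0.74 ± 0.29 (SE, adjusted p = 0.115), and without s12 it was -1.23 (adjusted p = 0.00124).

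Thrsp, a lipogenic regulator, had the same pair of high libraries. It was between 190 and 2862 CPM (s6 highest) with shSCR and between 121 and 1713 CPM (s12 highest) with shChREBP. Its log2 fold change was -1.04 ± 0.47 (SE, adjusted p = 0.18), and -1.91 without s12 (adjusted p = 0.00415). Elovl6, which lengthens palmitate, was at -0.88 ± 0.28 (SE, adjusted p = 0.054) and at -1.10 without s12 (adjusted p = 0.0147).

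Mlxipl was low in s12. It was 409 CPM, within the shChREBP range and under every shSCR library, and Ttpa (212 CPM) and Aplp2 (156 CPM), described below, were also under every shSCR library. In the same library Fasn, Thrsp, Scd1 and Acly were within the shSCR range. The part of s12 in the lipogenic results was not tested beyond leaving it out: 12 in place of 7 genes of fatty acid synthesis then fell. The count was 4 without any one of s2, s6, s7, s9, s11, s13 or s15, and also 4 without s9 and s13.

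**Figure D3:**
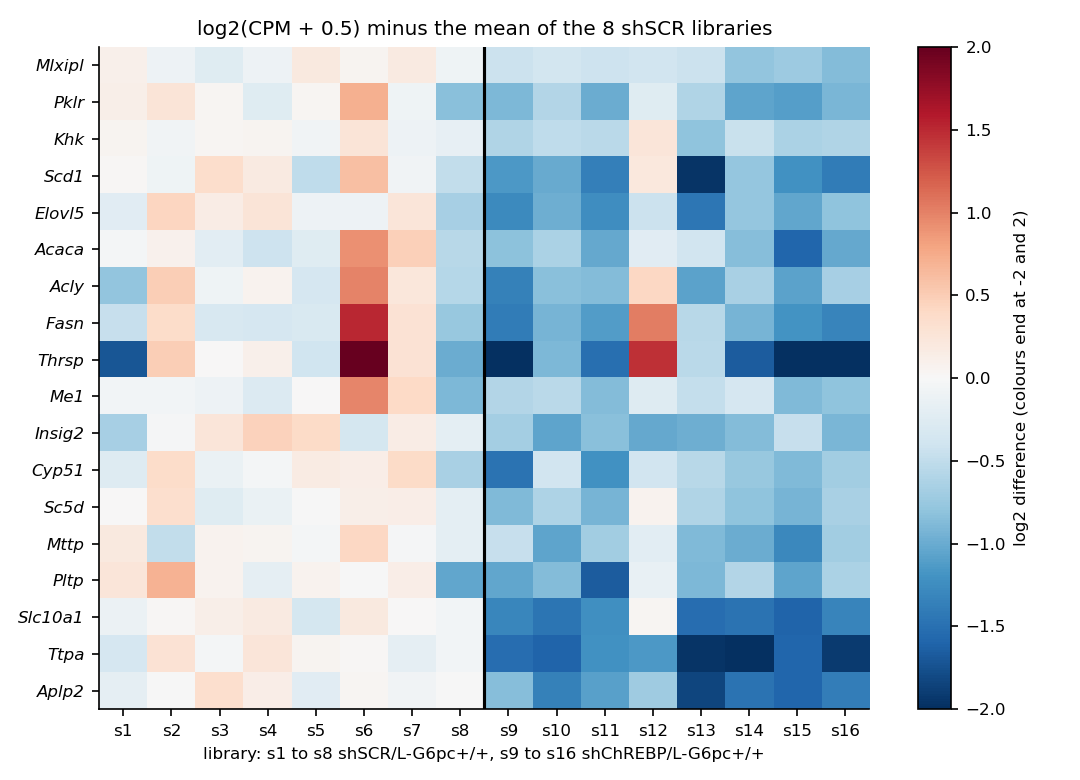
Rows are 18 genes and columns the 16 libraries (s1 to s8 shSCR, s9 to s16 shChREBP, parted by a line); colour is log2(CPM + 0.5) minus the mean of the 8 shSCR libraries, with colours ending at -2 and 2. Library s12 is blue for Mlxipl, Ttpa and Aplp2 and pale or red for Fasn, Thrsp, Scd1 and Khk, and s6 is red for Fasn and Thrsp.

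Of 23 genes of cholesterol synthesis tested, 7 fell (30.4%, against 3.23% of all genes) and none rose. Cyp51, Insig2, Ebp, Sc5d, Hmgcs1 and Fdft1 were among them, with a median log2 fold change of -0.46 and 21 of 23 fitted changes below 0. The number was 4 without s2, 9 without s12 and 5 without s9 and s13. All but Insig2 encode enzymes of sterol synthesis, while Insig2 encodes a protein that holds the SREBP complex in the endoplasmic reticulum.

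Insig2 was between 407 and 882 CPM (median 672) with shSCR and between 308 and 470 CPM (median 347) with shChREBP. The groups overlapped only through s1 (407 CPM) and s15 (470 CPM), and its log2 fold change was -0.88 ± 0.18 (SE, adjusted p = 0.00396). Cyp51, the lanosterol demethylase, was between 229 and 470 CPM (median 372) with shSCR and between 128 and 274 CPM (median 216) with shChREBP. The shSCR library s8 alone lay within the shChREBP range, and Cyp51 fell by 0.79 ± 0.16 on the log2 scale (SE, adjusted p = 0.00347).

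Ebp, the sterol isomerase, fell by 0.55 ± 0.13 (SE, adjusted p = 0.0114) and Sc5d, the lathosterol desaturase, by 0.64 ± 0.16 on the log2 scale (SE, adjusted p = 0.0146). Sc5d was at 1155 CPM in s12 and at or below 727 CPM in the other shChREBP libraries, against 933 to 1395 CPM with shSCR.

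Of 25 lipoprotein genes tested, 6 fell (24%, against 3.23% of all genes) and none rose. The 6 were Mttp, Pltp, Lipg, Apoa4, Apoc3 and Tm6sf2, with a median log2 fold change of -0.29. Tm6sf2, also on the target list, was at -0.41 ± 0.13 (SE, adjusted p = 0.0476). Its call was lost in 11 of the 16 fits without 1 library and in 6 of 12 other settings, both limma fits among them. The number of lipoprotein genes that fell was 3 without s3, 2 without s15 and 4 without s9 and s13. Mttp, which loads lipid onto apolipoprotein B and is also on the target list, was between 101 and 189 CPM (median 144) with shSCR and between 57.8 and 122 CPM (median 81.9) with shChREBP. Its groups overlapped through s2 on the shSCR side and s9 and s12 on the shChREBP side, and it fell by 0.78 ± 0.13 on the log2 scale (SE, adjusted p = 0.000843).

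Pltp, the phospholipid transfer protein, was between 14.5 and 49.3 CPM with shSCR and between 9.2 and 27.2 CPM with shChREBP (log2 fold change -0.89 ± 0.21, SE, adjusted p = 0.00894). Lipg, the endothelial lipase, was between 3.2 and 22.4 CPM and between 1.15 and 7.17 CPM. Its log2 fold change was -1.44 ± 0.38 (SE, adjusted p = 0.0209), and it was at -1.27 to -1.32 and did not pass without s6 or s15 (adjusted p 0.0518 to 0.0569). Apoa4, an apolipoprotein of triglyceride-rich particles, fell by 0.70 ± 0.19 on the log2 scale (SE, adjusted p = 0.0215), and did not pass without s3, s4 or s15.

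Of 24 glycolysis and pyruvate genes, 3 fell (12.5%, Pdk1 and Pklr among them), with a median of -0.06. Of 14 genes of fructose metabolism and sugar uptake, 3 fell (21.4%, Slc2a9 and Khk among them), with a median of -0.21, and 2 fell without s9 and s13. Over all genes 3.23% fell. Pdk1, the kinase that restrains pyruvate dehydrogenase, was between 50.3 and 91.3 CPM (median 65.7) with shSCR and between 26.2 and 62 CPM (median 34.2) with shChREBP. The highest shChREBP library was s12, with the others at or below 42.1 CPM, and the log2 fold change was -0.88 ± 0.17 (SE, adjusted p = 0.00212).

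Slc2a9, a urate and sugar transporter, was between 77.6 and 128 CPM (median 93.8) with shSCR and between 37.9 and 75.5 CPM (median 55.1) with shChREBP. The groups did not overlap, and the log2 fold change was -0.81 ± 0.16 (SE, adjusted p = 0.00336). In gluconeogenesis 1 of 15 genes passed (Slc37a4, above; median -0.16), and in glycogen metabolism 2 of 18, Pgm1 and Pygl (median -0.12), or 6.67% and 11.1%. The call of Pygl was lost without s1, s5, s6, s11, s14, s15 or s16, and 3 glycogen genes passed without s13. Pgm1 fell by 0.42 ± 0.09 on the log2 scale (SE, adjusted p = 0.0072), with an overlap of s3 and s9 only. None of 7 pentose phosphate genes passed (median -0.07).

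Triglyceride synthesis and lipid droplet genes had a median of -0.00, and 1 of 26 fell (3.85%, near the 3.23% of all genes). The number was 2 without s8 and 3 without s12, where Plin3 and Mgll were both at -0.58 (adjusted p = 0.0352 and 0.0272). The gene that fell with all libraries, Hsd17b13, encodes a lipid droplet protein of hepatocytes. It was between 672 and 883 CPM (median 793) with shSCR and between 395 and 588 CPM (median 521) with shChREBP. The groups did not overlap, and the log2 fold change was -0.66 ± 0.13 (SE, adjusted p = 0.00247).

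**Figure D4:**
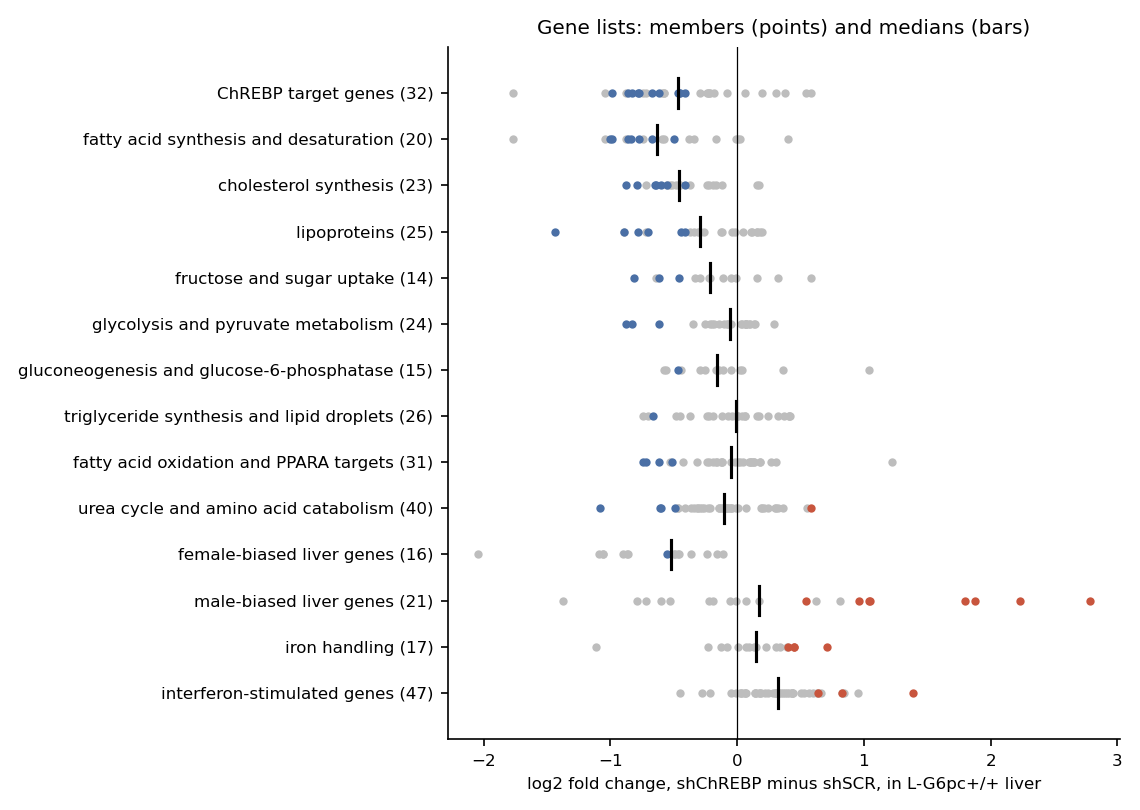
Each row is a gene list with its number of tested genes; points are the members' fitted log2 fold changes (blue fell, red rose, grey did not pass) and bars are medians. The lists of ChREBP targets, fatty acid synthesis, cholesterol synthesis and lipoproteins hold blue points and no red ones, and the male-biased list holds red points and no blue ones.

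The 3 smallest adjusted p-values were those of Ttpa, Aplp2 and Slc17a4, genes on none of the metabolic lists above. Ttpa, the alpha-tocopherol transfer protein that puts vitamin E into lipoproteins (ENSMUSG00000073988, chr4:20007938-20030785, + strand), was between 372 and 572 CPM (median 468) with shSCR and between 113 and 212 CPM (median 156) with shChREBP. The groups were far apart, and Ttpa fell by 1.61 ± 0.15 on the log2 scale (SE, adjusted p = 5.88e-09). Aplp2, an amyloid precursor-like protein (ENSMUSG00000031996, chr9:31149557-31211815, - strand), was between 218 and 320 CPM (median 253) with shSCR and between 71.1 and 156 CPM (median 98.3) with shChREBP. Again no library of one group reached the other, and Aplp2 fell by 1.25 ± 0.12 on the log2 scale (SE, adjusted p = 1.19e-08).

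Slc17a4, a transporter of organic anions, was between 55.1 and 81.3 CPM (median 75.2) with shSCR and between 21.2 and 36.9 CPM (median 35) with shChREBP. It too had no overlap, and its log2 fold change was -1.18 ± 0.13 (SE, adjusted p = 3.75e-07). Paox, the polyamine oxidase, was between 113 and 205 CPM and between 55.8 and 92.1 CPM, without overlap (log2 fold change -1.12 ± 0.19, SE, adjusted p = 0.000433). Bola1, a mitochondrial iron-sulphur protein, was between 29.8 and 39.7 CPM and between 10.4 and 27.2 CPM, also without overlap (log2 fold change -1.10 ± 0.18, SE, adjusted p = 0.000273). Pctp, the phosphatidylcholine transfer protein, fell by 0.96 ± 0.15 on the log2 scale (SE, adjusted p = 0.000273), and its groups were apart as well.

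Slc10a1, the sodium-dependent bile acid uptake carrier of hepatocytes, was between 89.8 and 131 CPM (median 116) with shSCR and between 37.4 and 118 CPM (median 43.6) with shChREBP. Library s12 held the 118 CPM and the other 7 were at or below 48.7 CPM, so that 1 library made the whole overlap. Slc10a1 fell by 1.15 ± 0.20 on the log2 scale (SE, adjusted p = 0.000884), and by 1.43 without s12 (adjusted p = 7.86e-07).

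Isoc2b fell by 1.53 ± 0.24 on the log2 scale (SE, adjusted p = 0.000185) and Sult1a1, a phenol sulfotransferase, by 1.17 ± 0.25 (SE, adjusted p = 0.00489). Mfsd2a, the lysophosphatidylcholine transporter, had the largest fitted fall of the genes that passed, -2.90 ± 0.63 (SE, adjusted p = 0.00561). It was between 6.36 and 121 CPM with shSCR and between 0 and 35.4 CPM with shChREBP, so that each group spread widely. It did not pass with limma-voom. The sulfotransferase and the glucuronosyltransferase Ugt1a5 share sequence with their paralogs, and how reads were split between them is not given in the sources used here.

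**Figure D5:**
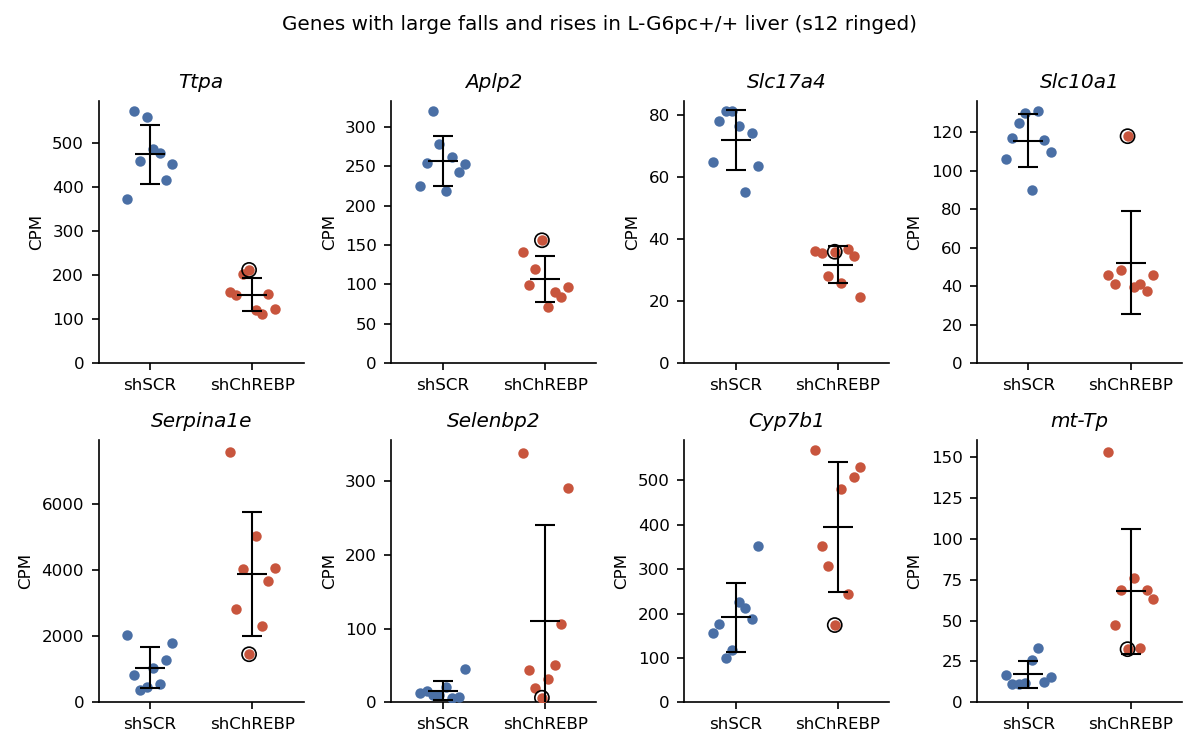
Each panel shows CPM, from 0, in the 8 shSCR (blue) and 8 shChREBP (red) libraries, with mean and SD as bars and s12 ringed; the upper panels are Ttpa, Aplp2, Slc17a4 and Slc10a1, and the lower ones Serpina1e, Selenbp2, Cyp7b1 and mt-Tp. Ttpa, Aplp2 and Slc17a4 do not overlap between groups, while the genes that rose spread widely with shChREBP.

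A hairpin guide can also lower other mRNAs through its seed, so the longest annotated 3' UTR of each gene was searched for the 7 letters that pair with the seed of each hairpin. With the seed counted from the first base of the arm (AACTACA), 10.5% of the 9667 tested genes with a 3' UTR held a match, as did 10.4% of those that fell and 9.18% of those that rose. If the processed guide began 1 G earlier (ACTACAT), the shares were 9.95%, 13% and 8.67%. For an arm of the scrambled hairpin they were 10.3%, 10.7% and 7.14% (CTTACAA), or 8.21%, 5.21% and 7.65% with the G (TTACAAC). Of the 15 named genes that fell most, Ttpa and Aplp2 held both of the shChREBP letter strings, Bola1 held ACTACAT and Slc10a1 held AACTACA. Slc17a4, Pctp, Paox, Isoc2b, Mfsd2a, Sult1a1, Ugt1a5, Lipg, Bhmt, Elovl5 and Scd1 held neither. Genes that held both strings and did not pass included G6pc, Arrdc4, Gpam and Socs2. A match is a description of the letters, and whether the hairpin acted on these mRNAs was not tested.

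Of 29 bile acid genes, Slc10a1 fell and Cyp7b1 rose (3.45% each, against 3.23% and 2.16% of all genes, median 0.02). The number that fell was 2 without s10, s12 or s14, with either limma fit, with no filter on low counts and with only the 16 libraries. Slco1a4, a transporter of organic anions, was at -0.94 with all libraries and at -1.03 without s12 (adjusted p = 0.043). Of 31 genes of fatty acid oxidation and other PPARA targets, 4 fell (12.9%, Acadl, Cyp4a14, Acaa1b and Cyp4a10) and none rose, with a median of -0.05. The number was 2 without any one of s2, s3, s4, s6, s7, s11, s13 or s15, and 1 without s16 or without s9 and s13. Acadl, the long-chain acyl-CoA dehydrogenase, was between 318 and 474 CPM (median 432) with shSCR and between 251 and 320 CPM (median 306) with shChREBP. It overlapped through s8, s10 and s11 only, and fell by 0.51 ± 0.10 on the log2 scale (SE, adjusted p = 0.00247).

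Of 40 genes of the urea cycle and amino acid breakdown, 4 fell (10%, Ahcy, Bhmt, Asl and Arg1) and 1 rose (2.5%, Bckdha), with a median of -0.11. The call of Bckdha was lost in 10 of the 16 fits without 1 library (s2, s4, s5, s6, s7, s9, s11, s14, s15 or s16, adjusted p 0.0518 to 0.0804). The number that fell was 1 without any one of s2, s3, s4, s6, s11, s14, s15 or s16 or without s9 and s13, 2 without s13 and 7 without s12. Ahcy, which splits S-adenosylhomocysteine, was between 158 and 267 CPM (median 188) with shSCR and between 99.5 and 180 CPM (median 128) with shChREBP. It overlapped through s12 in the shChREBP group and s1, s5 and s8 in the shSCR group (log2 fold change -0.60 ± 0.15, SE, adjusted p = 0.0151), and it did not pass without s9 and s13 (-0.51, adjusted p = 0.0638).

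Of 21 male-biased genes tested, 8 rose (38.1%, against 2.16% of all genes) and none fell. The 8 were Selenbp2, Serpina1e, Cyp2d9, Cyp7b1, Sult5a1, Cyp4a12a, Cyp4a12b and Ugt2b1. The rest of the list was divided: of the 21 fitted changes 12 were above 0 and 9 below 0, and the median was 0.17. The number that rose was 5 without any one of s5, s6, s9, s15 or s16 and 6 without s9 and s13. Of 16 female-biased genes, 1 fell (6.25%, Cyp39a1) and none rose, and all 16 fitted changes were below 0 (median -0.52). Cyp39a1 lost its call without any one of s1, s5, s6, s7, s8, s9, s10, s14, s15 or s16. All of the mice were male, so the list names state only where these genes are known to be higher.

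Serpina1e, a secreted antitrypsin, was between 371 and 2033 CPM (median 933) with shSCR and between 1459 and 7586 CPM (median 3863) with shChREBP. The lowest shChREBP library was s12, the only one within the shSCR range, and the highest was s9. Its log2 fold change was 1.88 ± 0.37 (SE, adjusted p = 0.00247), and 1.54 without s9 and s13 (adjusted p = 0.0175). The antitrypsin genes are near-identical copies, so the split of reads between Serpina1e and its neighbours is uncertain.

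Selenbp2, a selenium-binding protein, was between 5.4 and 45.4 CPM (median 12) with shSCR and between 6.37 and 338 CPM (median 47.4) with shChREBP. Values spread most in the shChREBP group, where s10, s11, s12 and s13 lay within the shSCR range. It had the largest rise of the named genes, 2.78 ± 0.50 on the log2 scale (SE, adjusted p = 0.00125), and is close in sequence to Selenbp1. Cyp7b1, the oxysterol hydroxylase of bile acid synthesis, was between 101 and 351 CPM (median 182) with shSCR and between 174 and 567 CPM (median 416) with shChREBP. The groups overlapped, and Cyp7b1 rose by 1.05 ± 0.24 on the log2 scale (SE, adjusted p = 0.00796).

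Cyp2d9, a steroid hydroxylase, rose by 1.04 ± 0.23 (SE, adjusted p = 0.00732) and the sulfotransferase Sult5a1 by 0.96 ± 0.22 on the log2 scale (SE, adjusted p = 0.00796). Cyp4a12a rose by 1.80 ± 0.49 (SE, adjusted p = 0.027), but did not pass without s5, s6, s9, s15 or s16 (adjusted p 0.0503 to 0.0798), and its reads may be shared with Cyp4a12b. Male-biased genes are known to follow pulses of growth hormone. Of 19 genes of the growth hormone and IGF axis, 1 rose (5.26%), Igfbp4, an IGF-binding protein (log2 fold change 0.38 ± 0.10, SE, adjusted p = 0.0206). It did not pass without s2 or s16 or with no filter on low counts, while the number that rose was 4 without s8 and 2 without s10, without s14 or without s9 and s13. Socs2 and Cish, feedback inhibitors that growth hormone induces, were at 1.16 ± 0.40 (SE, adjusted p = 0.0778) and 1.08 ± 0.44 (SE, adjusted p = 0.138), with groups that overlapped. Both were highest in s15 and s16. Socs2 was at 63.9 and 76.8 CPM there, at 6.14 to 17.5 CPM in the other shChREBP libraries and at 4.54 to 24.1 CPM with shSCR. Cish was at 50.7 and 60.9 CPM there, at 5.12 to 23.7 CPM in the other shChREBP libraries and at 2.02 to 29.5 CPM with shSCR. Without s9 and s13 Socs2 was at 1.38 and passed (adjusted p = 0.0468), with s15 and s16 still among the libraries.

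Over the 51 cytochrome P450 genes tested, 6 fell (11.8%) and 5 rose (9.8%), with a median of -0.22. Most of these genes were already counted on lists above. Cyp2d9, Cyp7b1, Cyp4a12a and Cyp4a12b, which rose, are on the male-biased list. Cyp51, Cyp4a14, Cyp4a10 and Cyp39a1, which fell, are on other lists above. The number that fell was 3 without s16 and 2 without s9 and s13, and the number that rose was 3 without s5, s6, s9 or s16 and 2 without s15. Cyp2a12 fell by 0.70 ± 0.16 on the log2 scale (SE, adjusted p = 0.00796). Of 32 conjugating enzymes, 4 fell (12.5%) and 2 rose (6.25%), with a median of -0.05. The 2 that rose, Sult5a1 and Ugt2b1, are also on the male-biased list. The number that fell was 2 without s3 or without s9 and s13, and the number that rose was 1 in 10 of the 16 fits without 1 library. Gstt3, a glutathione transferase, was between 172 and 314 CPM with shSCR and between 74.7 and 247 CPM with shChREBP, where s12 was again highest and the others were at or below 135 CPM (log2 fold change -0.91 ± 0.21, SE, adjusted p = 0.00919).

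Other large rises were in genes of varied function. Inf2, a formin that severs and builds actin filaments, was between 34.9 and 298 CPM (median 56.8) with shSCR and between 96.2 and 616 CPM (median 442) with shChREBP. The shSCR libraries s5, s6 and s8 reached into the shChREBP range, and s12 was the lowest shChREBP library. Its log2 fold change was 1.73 ± 0.42 (SE, adjusted p = 0.0133). Flrt1, an adhesion protein of cell membranes, was between 2.23 and 7.07 CPM and between 3.45 and 21.2 CPM (log2 fold change 1.68 ± 0.33, SE, adjusted p = 0.00247). Dancr, a noncoding RNA that hosts small nucleolar RNAs, was between 0.457 and 5.28 CPM and between 2.39 and 23.6 CPM, with s9 highest (log2 fold change 1.90 ± 0.46, SE, adjusted p = 0.0122).

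Mitochondrial transfer RNAs were also among the largest rises. The transcript of mt-Tp, the proline tRNA, was between 11 and 33.5 CPM (median 14) with shSCR and between 32.5 and 153 CPM (median 65.8) with shChREBP. The shSCR library s6 alone reached into the shChREBP range, and s9 was the highest of all. Its log2 fold change was 1.93 ± 0.28 (SE, adjusted p = 4.78e-05), and 1.65 without s9 (adjusted p = 0.000147). The alanine tRNA mt-Ta (1.44 ± 0.27, SE, adjusted p = 0.00212) and the cysteine tRNA mt-Tc (1.74 ± 0.37, SE, adjusted p = 0.00422) rose with it. Gm42418 took a median of 8.34% of the counts in the shChREBP and 5.52% in the shSCR libraries (log2 fold change 0.53, adjusted p = 0.184), and its part in these rises was not tested.

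Of 17 iron genes, 4 rose (23.5%, against 2.16% of all genes) and none fell, with a median of 0.15. These were Hpx, Steap3, Slc40a1, the iron exporter ferroportin, and Slc11a2. The number was 1 without any one of s2, s3, s4, s6 or s9, 2 without s11, s13, s14, s15 or s16, and 1 without s9 and s13. Hpx, the plasma protein that binds haem, was between 2779 and 4484 CPM (median 3091) with shSCR and between 4575 and 6871 CPM (median 5089) with shChREBP. The groups did not overlap, and Hpx rose by 0.71 ± 0.15 on the log2 scale (SE, adjusted p = 0.0035).

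Of 39 genes of lysosomes and autophagy, 3 rose (7.69%, Lamp2, Man2b1 and Hexa) and 1 fell (2.56%, Glb1), with a median of 0.08. Without s9 and s13, and with no filter on low counts, 1 rose. Hexa lost its call in 11 of the 16 fits without 1 library (s2, s5, s6, s7, s8, s9, s11, s13, s14, s15 or s16) and Glb1 in 7 (s2, s5, s7, s11, s14, s15 or s16). Lamp2, a lysosomal membrane protein, was between 591 and 695 CPM (median 657) with shSCR and between 762 and 926 CPM (median 855) with shChREBP. No library of one group reached the other, and Lamp2 rose by 0.42 ± 0.08 on the log2 scale (SE, adjusted p = 0.00157). Man2b1, a lysosomal mannosidase, rose by 0.49 ± 0.13 on the log2 scale (SE, adjusted p = 0.0184), and was at 0.45 without s9 and s13 (adjusted p = 0.0518).

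Of 47 interferon-stimulated genes, 3 rose (6.38%, against 2.16% of all genes, Zbp1, Irgm1 and Irf1) and none fell. Irf1 lost its call in 9 of the 16 fits without 1 library (s2, s3, s4, s6, s7, s9, s11, s15 or s16, adjusted p 0.0515 to 0.075), and 8 rose with only the 16 libraries. The median was 0.32, with 42 of 47 fitted changes above 0, and it was 0.16 without s9 and s13. Zbp1, a sensor of unusual nucleic acids, was between 4.57 and 7.78 CPM (median 5.53) with shSCR and between 7.53 and 21.8 CPM (median 14) with shChREBP. The groups overlapped only through s4 and s12, and the log2 fold change was 1.39 ± 0.29 (SE, adjusted p = 0.00426). Irgm1, an interferon-induced GTPase, rose by 0.83 ± 0.21 on the log2 scale (SE, adjusted p = 0.0151).

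Of 25 genes on the list of p53 targets 2 rose (8%), Xpc and Trp53, the gene of p53 itself (median 0.14). With no filter on low counts none of them rose. Xpc, which recognises damaged DNA, was at a log2 fold change of 0.47 ± 0.12 (SE, adjusted p = 0.0178), and Trp53 lost its call without any one of s2, s3, s4, s6, s7, s9, s11, s12, s13, s15 or s16 (adjusted p up to 0.109). Of 18 mitosis genes none passed, although the median was 0.77, and this was 0.18 without s13 and 0.30 without s9 and s13. Of 72 genes of oxidative phosphorylation 4 fell (5.56%) and none rose (median -0.12), and of 45 proteasome genes 3 fell (6.67%) and none rose (median -0.07). Over all genes 3.23% fell, so neither count is read as a result about these lists. In oxidative phosphorylation the number was 1 without s2, s11, s13 or s15 or without s9 and s13, 2 without s3, s4, s6, s7 or s14 and 8 without s1. In the proteasome it was 1 without s2 or s16, 5 without s9 or without s9 and s13 and 6 without s8.

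Cell type markers were compared because liver holds more than hepatocytes. The summed level of 10 hepatocyte markers was 57872 to 78177 CPM with shSCR and 58818 to 70535 CPM with shChREBP, a log2 difference of -0.00 (exact permutation p = 0.969, adjusted 0.969 over 7 lists). Kupffer cell markers were 1000 to 1738 CPM and 955 to 2739 CPM (difference 0.21, exact permutation p = 0.345, adjusted 0.402). Stellate cell markers were 285 to 391 CPM and 334 to 435 CPM (difference 0.21, exact permutation p = 0.0126, adjusted 0.0881). Markers of blood cells were 424 to 3422 CPM and 643 to 6953 CPM (difference 0.89, exact permutation p = 0.122, adjusted 0.272), with s13 highest. Markers of lymphocytes and neutrophils differed by 0.53, of sinusoidal endothelium by 0.14 and of cholangiocytes by 0.29, with adjusted exact permutation p of 0.272, 0.272 and 0.383. No list passed the test, and no marker was at 0 in all 16 libraries. Of the markers with enough counts to be tested singly, none rose and 1 fell (Asgr1, of hepatocytes). Over all genes 2.16% rose and 3.23% fell. Only 2 of 8 markers of lymphocytes and neutrophils and 2 of 6 of cholangiocytes were among those tested, while the other lists were tested in full. The part of cell makeup in the rises of the interferon-stimulated genes was not tested. Nor was its part tested in the median of the mitosis genes, of which none passed. Library s13 also held the highest Kupffer and lymphocyte marker sums.

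The same hairpin was also given to L-G6pc-/- mice, whose libraries share no sample with the 16 above. There 770 genes passed (7.56%), of which 137 passed in both genotypes in the same direction (98 lower, 39 higher) and none in opposite directions. These were 25% of the genes that passed in L-G6pc+/+ liver and 17.8% of those in L-G6pc-/- liver. Ttpa, at -1.61 in L-G6pc+/+ liver, was at -1.51 in L-G6pc-/- liver, and Aplp2, at -1.25, was at -1.88. Mlxipl was at -0.55 and -0.57 and Pklr at -0.83 and -0.58. Serpina1e was at 1.88 and 1.60, and Cyp7b1 at 1.05 and 1.07.

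The difference between the genotypes was itself tested, and 8 genes passed (0.0786%), 6 with a higher and 2 with a lower log2 fold change in L-G6pc-/- liver; 1226 had an unadjusted p under 0.05. The number was 4 without s2, s3, s4, s5 or s16, 5 without s1, s11, s12 or s15, 14 without s13 and 16 without s10, and it was 59 with DESeq2. Hsd17b13 was 1 of the 8: it fell by 0.66 on the log2 scale in L-G6pc+/+ liver and was at 0.36 in L-G6pc-/- liver (adjusted p = 0.0682), a difference of 1.02 (adjusted p = 0.0149). Tgfbr2, a receptor of TGF-beta, rose by 0.85 ± 0.19 in L-G6pc+/+ liver (SE, adjusted p = 0.00841) and was at -0.40 in L-G6pc-/- liver, a difference of -1.25 (adjusted p = 0.0365). Cyp51 and Insig2, which fell in L-G6pc+/+ liver, were at 0.06 (adjusted p = 0.863) and -0.28 (adjusted p = 0.362) in L-G6pc-/- liver, but neither difference passed the test.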

How the data were processed

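Liver RNA libraries were made as 3' tags and sequenced on an Illumina instrument. Per the labels and the study's methods, reads were aligned with HISAT to GRCm38, sorted with SAMtools and counted per gene with HTSeq-count. The authors deposited these raw counts, and a second table of normalised signal, which the values show to be (count + 0.5) divided by 1 number per library on a linear scale, so its log2 was taken. Tool versions and the strand setting are not given in the sources used here. Samples were grouped by GEO's labels.

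The main test was edgeR 4.0.16 (quasi-likelihood, TMM scaling) on the deposited counts of all 33 libraries in 4 groups, with filterByExpr (minimum count 10, total 15), in R 4.3.3, and an adjusted p under 0.05 was called. DESeq2 1.42.0, limma 3.58.1 (voom, and log2 of the deposited table), other scalings and filters and leaving out libraries were alternatives. The normalised table was not used in any other result. Marker sums and correlations had two-sided exact permutation tests over libraries (12870 and 40320 arrangements), and the smallest p of the former is 0.000155. Scripts were tested on simulated data. Depth was 1824809 to 3546852 counts per library, which limits the precision of low genes.

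Named genes were Mlxipl and Pklr, the ChREBP partner and target lists, the 15 genes that rose most and the 15 that fell most (mean of 5 CPM or more, predicted genes left out), the members of each other list ranked 1 to 4 by p, and the most counted gene. Members that make up a count, Cyp4a12b, Ugt2b1, Acss2, Elovl2, Hmgcs1, Fdft1, Apoc3, Arg1, Asgr1, the genes that differed between genotypes, and the mitochondrial genes in the closing section were named after their values were seen. The comparison and the gene lists were chosen with earlier results of these data known, so no list is independent evidence. Some members that count in a list are not reported here by name. Coordinates are GENCODE M21, GRCm38; promoters are RefSeq, GRCm38.p6.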

Additional observations from a re-analysis of the deposited data

Results flagged for a closer look

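Within a group of 8, 1 library was far from the other 7 in 35 of 230 groups of values. The rule flags about 1 in 20 where values are normal and independent. CPM of related genes need not be either, so no excess is read from this count. Most of these were in s12 of the shChREBP group or s6 of the shSCR group.

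Library s12 stood above the other 7 shChREBP libraries in genes of lipogenesis, fructose metabolism and transport. Fasn was at 1467 CPM (others 273 to 488), Thrsp at 1713 (121 to 427), Scd1 at 6253 (1374 to 3143), Acly at 232 (67.3 to 110), Acacb at 89.8 (28.1 to 50.5) and Elovl6 at 111 (32.8 to 67.2). Khk was at 644 CPM (312 to 401), Tkfc at 205 (113 to 150), Slc37a4 at 163 (77.6 to 115), Pdk1 at 62 (26.2 to 42.1) and Sc5d at 1155 (579 to 727). Slc10a1 was at 118 CPM (37.4 to 48.7), Mfsd2a at 35.4 (0 to 14.3) and Gstt3 at 247 (74.7 to 135).

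Library s6 stood above the other 7 shSCR libraries in Fasn at 2052 CPM (427 to 931), Thrsp at 2862 (190 to 870), Elovl6 at 296 (40.9 to 94.5), Pnpla3 at 23.5 (0.454 to 4.73), Tkfc at 312 (116 to 182) and Gpd1 at 374 (266 to 313).

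Library s9 had 15.7% of its counts in Gm42418 (others 6.25 to 9.46%), or 176616 CPM (59017 to 96226), and was highest in mt-Ta at 321 CPM (54.5 to 144), mt-Tp at 153 (32.5 to 76.2) and Dancr at 23.6 (2.39 to 8.7). Library s13 was highest in summed blood cell markers at 6953 CPM (643 to 3067), Top2a at 70.6 (2.87 to 21.6) and Angptl8 at 85.5 (9.07 to 38.4).

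Single genes stood apart in other libraries. With shSCR these were Irf1 in s8 at 204 CPM (89.5 to 140), Selenbp2 in s8 at 45.4 (5.4 to 20.6), Angptl8 in s7 at 193 (6.85 to 69.4), Xpc in s3 at 27.5 (17 to 21.5), Ugt1a5 in s3 at 28 (4.09 to 15.4) and Flrt1 in s1 at 7.07 (2.23 to 4.09). With shChREBP, G6pc in s16 was low at 69.1 CPM (151 to 201).

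The effect of shChREBP differed between the genotypes in 8 genes by edgeR's quasi-likelihood test of the difference with Benjamini-Hochberg adjustment, each given here as the log2 fold change in L-G6pc+/+ liver, that in L-G6pc-/- liver and their difference. Srxn1, which repairs oxidised peroxiredoxins, was at -0.31 and 2.10 (difference 2.41, adjusted p = 0.0181). Cyp2a5, a cytochrome P450 with near-identical paralogs, was at -0.41 and 1.37 (1.78, adjusted p = 0.0365). Ifit3b, an interferon-stimulated gene with a near-identical copy, was at -0.45 and 1.21 (1.65, adjusted p = 0.0181). Hsd17b13 was at -0.66 and 0.36 (1.02, adjusted p = 0.0149), D10Wsu102e at -0.58 and 0.34 (0.92, adjusted p = 0.0149) and Esf1 at -0.31 and 0.49 (0.80, adjusted p = 0.0365). Tgfbr2 was at 0.85 and -0.40 (-1.25, adjusted p = 0.0365), and Cyp2d40 at -0.34 and -1.75 (-1.41, adjusted p = 0.0486).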

How the results depend on the processing

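No named gene that passed changed sign under any alternative. The number of genes changed in L-G6pc+/+ liver (549) ranged from 316 to 626 without 1 library, and was within 1.5 times 549 under every other alternative (380 with no filter on low counts, 418 without s9 and s13, 468 with library size only, 526 and 527 with limma, 542 without Gm42418, 682 with only the 16 libraries, 705 with DESeq2 and 738 without s29, s30, s32 and s33). The number of genes whose effect differed between genotypes (8) was less stable: 33 with library size only, 59 with DESeq2, 4 with limma-voom, 3 with limma on the deposited table, 19 without s9 and s13, 37 without s29, s30, s32 and s33, and 4 to 16 without 1 library. The causes were not tested. Of the 85 named genes that passed, 32 lost the call in at least 1 fit without 1 library and 25 without s9 and s13. Marker sums and correlations changed no call. No paired analysis was possible because the labels pair no library of 1 group with a library of the other. Depth (1824809 to 3546852 counts per library) limits the changes that can be seen in low genes.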

Other observations

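Mitochondrial transfer RNAs were looked at as a class after their values were seen. Of the 12 tested, 10 rose (83.3%) and none fell, with a median log2 fold change of 1.34. Without s9, the library with the highest values, 9 of 12 rose (median 1.15), and without s9 and s13, 8 of 12 rose (median 1.0). The count was 10 or 11 of 12 with other scalings, DESeq2 and limma and 10 without Gm42418, and the direction was the same in each. The share depended on the filter: 10 of 20 rose with no filter on low counts (median 1.33), and 9 of 9 with a mean of at least 5 CPM.

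Other mitochondrial RNAs differed in direction. The ribosomal RNA mt-Rnr1 was between 7330 and 11585 CPM (median 8894) with shSCR and between 10646 and 22049 CPM (median 12508) with shChREBP, a log2 fold change of 0.53 ± 0.14 (SE; adjusted p = 0.0217), while mt-Rnr2 was at 0.26 ± 0.11 (SE; adjusted p = 0.151). mt-Nd6, the light-strand gene of a complex I subunit, rose by 0.74 ± 0.22 on the log2 scale (SE; adjusted p = 0.0419). mt-Nd4, a complex I subunit on the other strand, was between 5027 and 7610 CPM (median 5994) with shSCR and between 3524 and 5385 CPM (median 4328) with shChREBP, and fell by 0.49 ± 0.13 on the log2 scale (SE; adjusted p = 0.0233).

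Gm26917, a noncoding transcript next to Gm42418 on chromosome 17, was between 145 and 227 CPM (median 180) with shSCR and between 245 and 542 CPM (median 337) with shChREBP. The groups did not overlap, and it rose by 0.94 ± 0.17 on the log2 scale (SE; adjusted p = 0.00146), whereas Gm42418 did not pass (0.53, adjusted p = 0.184). Whether reads of ribosomal or short RNA account for these values was not tested.

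Of the gene lists not described above, 12 had no member that passed. In the others 10 members rose and 16 fell, and medians over all of these lists ranged from -0.26 to 0.69. Over all genes 2.16% rose and 3.23% fell. Hgfac was counted in more than 1 of these lists, and some members, such as Hpx and Slc10a1, were also counted in lists above. These counts are therefore not read as a result about the lists.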
